A study of Mus musculus with 18 samples.

Results

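The nuclear genes for the subunits of the mitochondrial respiratory chain and of ATP synthase were followed in the livers of mice that differed in diet and in gut microbiota. Members were the gene symbols of the deposited table that name a subunit of complex I (Nduf a, b, c, s and v series), complex II (Sdha to Sdhd), complex III (Uqcr genes and Cyc1), complex IV (Cox4 to Cox8 genes) or ATP synthase (Atp5 genes). This gave 86 of 19057 genes: 39 of complex I, 4 of complex II, 9 of complex III, 17 of complex IV and 17 of ATP synthase. Assembly factors and the genes of mitochondrial DNA were no members, and neither was the acyl carrier subunit Ndufab1, whose symbol the pattern does not match. How RNA was selected for the libraries is not given in the sources used here, and the values are RPKM, read counts scaled to gene length and to the mapped reads of a library.

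The 18 livers came from ICR mice, an outbred stock, all 10 weeks old, with 3 livers in each of 6 groups. Con mice ate the regular diet and HFD mice a high-fat diet. AOS mice, whose labels name no high-fat diet, and HFD+AOS mice, on the high-fat diet, were treated with alginate oligosaccharides (AOS), short sugar chains from brown algae, at 10 mg/kg. The route and timing for those groups are not given in the sources used here. Con-FMT and A10-FMT mice ate the high-fat diet and received by mouth the pooled small-intestinal content of donors given water or of donors given AOS at 10 mg/kg. The A10-FMT mice thus received microbiota from AOS-dosed donors and were not themselves described as dosed. The methods name male mice and describe no step to deplete the recipients' own microbiota. The labels number the livers of a group without naming the animals, so p-values measure the spread between these samples.

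The respiratory chain hands electrons from NADH at complex I, and from succinate at complex II, through ubiquinone to complex III and by cytochrome c to complex IV, where oxygen is reduced. Complexes I, III and IV pump protons across the inner mitochondrial membrane, and ATP synthase uses their return to make ATP. Complex II is encoded by nuclear genes alone, while the other complexes also hold subunits of mitochondrial DNA. Hepatocytes are rich in mitochondria, and their respiratory chain takes up the reducing equivalents of fatty acid oxidation.

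Promoter stretches are shown for the 2 members that passed the test in any comparison (Cox7a2l and Uqcr11) and for 2 members whose values stood apart in others (Ndufa3 in the high-fat diet livers and Atp5e in the A10-FMT livers). They are RefSeq sequences on GRCm38.p6, up to 150 bases before the RefSeq start and outside annotated exons, written 5′ to 3′ on the gene's strand, and capitals mark the ETS core CCGGAAG on either strand.
Cox7a2l, chr17:83514334-83514483, minus strand: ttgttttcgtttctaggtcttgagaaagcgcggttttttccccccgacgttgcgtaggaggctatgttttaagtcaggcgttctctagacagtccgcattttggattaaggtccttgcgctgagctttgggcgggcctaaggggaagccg
Uqcr11, chr10:80406831-80406980, minus strand: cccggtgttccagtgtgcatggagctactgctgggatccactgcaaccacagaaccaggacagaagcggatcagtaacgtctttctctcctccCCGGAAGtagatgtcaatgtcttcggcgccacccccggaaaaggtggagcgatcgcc
Ndufa3, chr7:3617223-3617372, plus strand: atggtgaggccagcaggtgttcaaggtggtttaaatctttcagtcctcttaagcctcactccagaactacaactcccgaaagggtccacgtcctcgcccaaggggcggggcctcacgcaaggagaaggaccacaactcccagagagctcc
Atp5e, chr2:174464106-174464255, minus strand: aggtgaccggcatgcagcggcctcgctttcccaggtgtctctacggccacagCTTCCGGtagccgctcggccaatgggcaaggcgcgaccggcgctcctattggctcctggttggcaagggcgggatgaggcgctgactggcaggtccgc
The stretches of Uqcr11 and Atp5e each held 1 ETS core and those of Cox7a2l and Ndufa3 held none of the 4 motifs searched. The Cox7a2l stretch precedes the start of its coding transcripts and lies inside the gene's GENCODE bounds, which a longer noncoding transcript extends upstream. The ETS core is the letters bound by GABPA, a known activator of respiratory chain genes; here a match is only a description of the letters.

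Over the whole promoter windows, from 250 bases before to 50 after the start, 67 of the 86 members had a RefSeq sequence. The core of NRF1, GCATGCGC, was found on either strand in 10 of the 67 (14.9%), against 6.25% of the promoters of the genes tested and 3.05% of all promoters. The estrogen-related receptor core AAGGTCA was found in 8 (11.9%, against 4.30% and 5.38%), and the YY1 core AAGATGGC in 9 (13.4%, against 5.70% and 3.19%). The ETS core was found in 16 (23.9%), close to the 21.3% of the genes tested and above the 9.93% of all promoters. At least 1 of the 4 motifs stood in 33 members (49.3%), against 33.2% of the genes tested and 19.7% of all promoters. The same was so for 54.5% of cytosolic and 58.0% of mitochondrial ribosomal protein promoters. The NRF1, estrogen-related receptor and YY1 cores stood in 6.06%, 4.55% and 9.09% of the cytosolic and in 11.6%, 5.8% and 17.4% of the mitochondrial ones. Of the genes whose stretches are shown above, Uqcr11 also held the NRF1 core in this longer window. Atp5e also held the estrogen-related receptor core there, and Ndufa3 held the YY1 core. None of the 4 motifs contains another.

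The livers showed high hepatocyte markers throughout, with a summed RPKM of 10 genes, Alb and Apoa1 among them, between 55069 and 90532, while 6 striated muscle markers summed to at most 0.06. Summed RPKM over all genes lay between 692303 and 806937 per liver; read depth is not given in the sources used here. The first Con liver stood apart for the members: it was the lowest of the 3 Con livers for 76 of 81 members tested and the lowest of all 18 livers for 30 of them, and it held both the lowest hepatocyte marker sum and the highest summed RPKM. The third Con liver lay between the other 2 Con livers for 98.0% of 148 genes in which those 2 differed most, and the third AOS liver did so for 96.5% of 142 genes, against 60.0% to 76.8% in the other groups; for the members this was so in 67 of 81 in Con and 29 of 81 in AOS. Whether these 2 livers are separate animals was not tested. Where they enter, the members called, the median of the members, tests of named genes and the members' length classes were also computed without both. Counts without overlap and the medians by complex or list were not. Of 5 adipocyte markers, Adipoq and Cfd were highest in the first A10-FMT liver (4.42 and 22.05 RPKM). They were next in the second (0.39 and 1.34), while no other liver passed 0.11 and 0.32. Plin1 had 0.98 and 0.11 RPKM in these 2 livers and 0 elsewhere. Fabp4 was highest in the first (28.02) but had 10.3 in the second, below the 14.78 of the first HFD+AOS liver. Ucp1 was at most 0.04 RPKM. In bulk liver, fewer cells of a type and less RNA per cell cannot be told apart.

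The members were among the abundant transcripts of the liver. Of the 81 that reached 1 RPKM in at least 3 livers, 58 had a mean over 100 RPKM and the median of the means was 157 RPKM. The most abundant in each complex was Ndufa4 in complex I (753 RPKM, a subunit since placed with complex IV), the iron-sulfur subunit Sdhb in complex II (212), Uqcrb in complex III (426), Cox6a1 in complex IV (680) and the catalytic beta subunit Atp5b in ATP synthase (609). By median, complex IV (335 RPKM) and ATP synthase (287) lay above complex III (168), complex II (123) and complex I (104). The coefficient of variation within groups had a median of 8.83% over the members and ran from 4.82% to 104.75%, the latter in Ndufb4b, a near-identical copy of Ndufb4 with a mean of 0.56 RPKM, whose reads are uncertain. Exon bases shared with another annotated gene occurred in 29 of the 86 members, in none for over 50% of the exon bases.

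**Figure D1:**
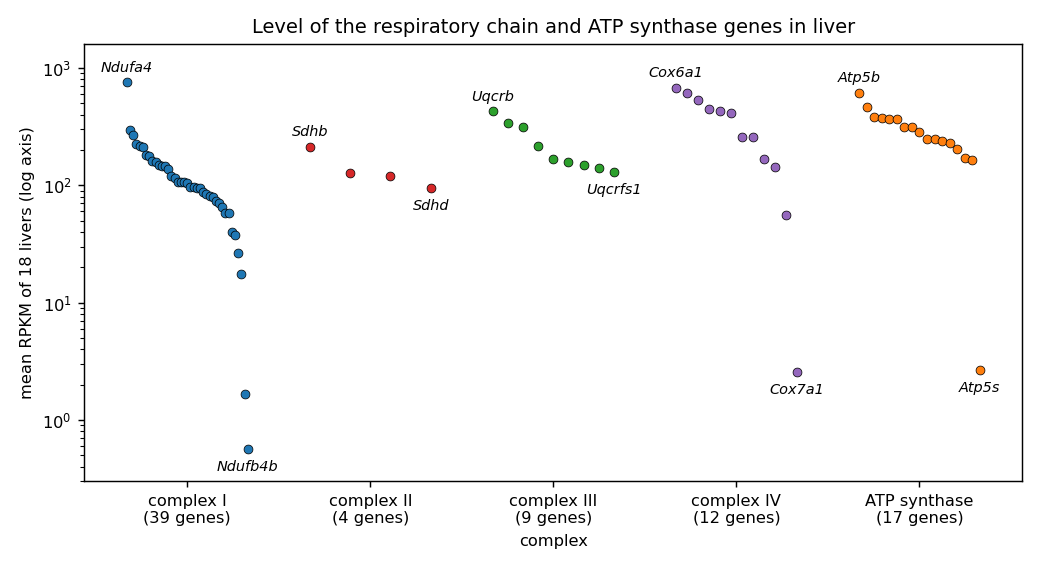
Mean RPKM over the 18 livers (log axis) of the 81 tested members, 1 point per gene, grouped by complex and sorted within it, with the highest and lowest gene of each complex named. Most genes lie near or above 100 RPKM, and the lowest points are Ndufb4b and Ndufa4l2 in complex I, Cox7a1 in complex IV and Atp5s in ATP synthase.

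The complex IV isoforms followed the liver pattern. The widely expressed forms Cox4i1 (448 RPKM), Cox6a1 (680), Cox6b1 (432), Cox7a2 (142) and Cox8a (531) were abundant. Their counterparts of lung, muscle, testis and other tissues did not reach the minimum and were not tested: Cox4i2 (at most 0.62 RPKM), Cox6a2 (0.25), Cox6b2 (1.02), Cox8b (0.31) and Cox7b2, listed at 0 in all 18 livers. Cox7a1, the heart and muscle form of Cox7a, was the exception, with 0.89 to 4.30 RPKM. In complex I, Ndufa4l2, a paralog of Ndufa4 known for its induction by low oxygen, had 0.67 to 2.89 RPKM.

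Further subunits were followed in each complex. In complex I, the flavin-bearing core subunit Ndufv1 had 55.4 to 83.4 RPKM over the 18 livers, and the accessory subunits Ndufa9 and Ndufb8 had 66.0 to 84.1 and 181 to 243 RPKM. In complex III, the core proteins Uqcrc1 and Uqcrc2 had 131 to 190 and 102.5 to 159 RPKM, and the Rieske iron-sulfur protein Uqcrfs1 107 to 139.5 RPKM. The first Con liver held many of the lowest values, as given above.

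In complex IV, Cox5a had a mean of 257 RPKM, Cox5b 258, Cox6c 413 and Cox7c 612. The 3 genes for the same proton-carrying c subunit of ATP synthase were all expressed, with means of 316 RPKM for Atp5g1, 205 for Atp5g2 and 375 for Atp5g3. Their log2 fold changes were -0.09, 0.10 and 0.10 in HFD against Con and 0.12, 0.10 and 0.17 in HFD+AOS against HFD. The stalk subunits Atp5c1 (249 RPKM) and Atp5o (239.6) had 0.02 and -0.10 in HFD against Con, and none of these genes passed the test in any comparison.

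The mean log2(RPKM + 1) of the 81 members differed little between groups beside the spread between livers. It was 6.92, 7.22 and 7.11 in the Con livers, 7.24, 7.10 and 7.06 in AOS, 6.98, 7.09 and 6.95 in HFD, 7.15, 7.07 and 7.20 in HFD+AOS, 7.02, 7.09 and 7.04 in Con-FMT, and 7.17, 7.19 and 7.04 in A10-FMT, with a pooled SD within groups of 0.09. Apart from the first Con liver, the 2 lowest values were both of HFD livers, and all groups overlapped with at least 1 other. The members took 1.82% of the summed RPKM in the first Con liver and up to 2.58% in the first AOS liver. The HFD group mean was the lowest of the 6 groups for complexes I, III and IV and for ATP synthase, and the Con mean for complex II. For complex IV it was 7.54 ± 0.11 (SD, n = 3) in HFD, against 7.72 ± 0.15 in Con, 7.74 ± 0.05 in HFD+AOS and 7.73 ± 0.11 in A10-FMT. Each gene counts equally in this mean, also Cox7a1, with 0.89 to 4.30 RPKM and a log2 fold change of -0.92 in HFD against Con.

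**Figure D2:**
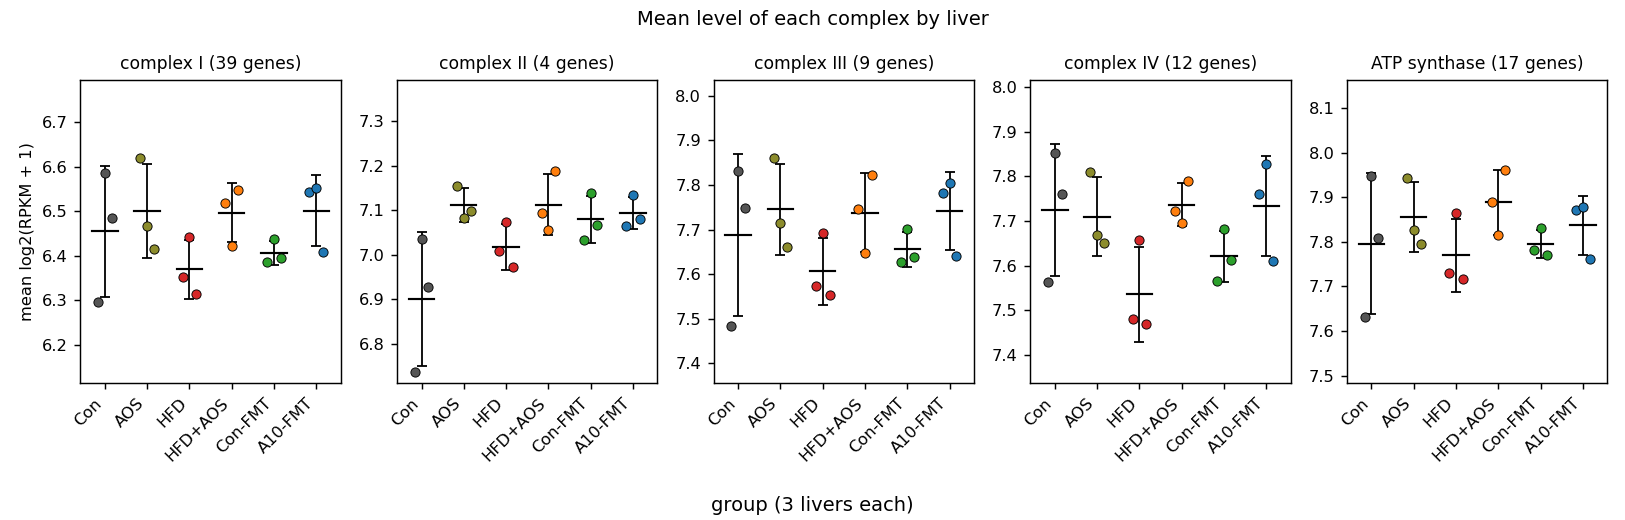
Mean log2(RPKM + 1) of the tested genes of each complex, 1 point per liver and 3 livers per group, with horizontal lines for group means and bars for SD. The first Con liver is the lowest of the 18 livers in complexes I, II, III and ATP synthase. The HFD mean is the lowest of the 6 groups in complexes I, III, IV (7.54) and ATP synthase.

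The first comparison asked what the high-fat diet did. Between HFD and Con livers no member passed the test (limma on log2(RPKM + 1), adjusted p under 0.05 over all 10507 genes tested), in a comparison where 0.381% of all genes did. At an unadjusted p under 0.05, 5 members were higher and 8 lower in HFD, 16.0% of the members beside 15.4% of all genes. By direction, 1219 of all 10507 genes were higher and 404 lower. The median log2 fold change of the members was -0.10, with 58 of 81 below 0, while that of all genes tested was 0.05, with 62.5% above 0. In complex IV all 12 tested genes had values below 0 (median -0.12), in complex I 29 of 39 (median -0.13) and in complex III 6 of 9 (median -0.10). ATP synthase had 10 of 17 below 0 (median -0.04), and complex II had 3 of 4 above 0 (median 0.10).

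Sdha, the flavoprotein of complex II that oxidises succinate, was the member with the smallest p. It had 94.7, 117 and 106 RPKM in Con and 140, 125 and 127 in HFD. The groups did not overlap, and the log2 fold change was 0.30 (SE 0.08, adjusted p = 0.113 by limma). The other complex II genes had log2 fold changes of -0.03 (Sdhb), 0.04 (Sdhc, a membrane anchor) and 0.16 (Sdhd, the other anchor).

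Cox7a1 had the largest difference in the other direction, with 3.19, 4.30 and 4.02 RPKM in Con and 0.89, 1.80 and 2.08 in HFD. Each HFD liver lay below each Con liver (log2 fold change -0.92, SE 0.25, adjusted p = 0.113 by limma), and muscle markers were at or near 0 in every liver. Uqcr11, a small subunit of complex III, had 317, 412 and 396 RPKM in Con and 278, 307 and 258 in HFD (-0.41, SE 0.12, adjusted p = 0.125). Ndufa3, an accessory subunit in the membrane arm of complex I, had 273, 318 and 324 RPKM in Con and 239, 252 and 231 in HFD (-0.34, SE 0.09, adjusted p = 0.12). These 3 genes were without overlap between the groups.

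Without overlap and lower in HFD were 7 of 81 members (Ndufa1, Ndufa3, Ndufa8, Ndufa13, Uqcr11, Cox7a1 and Atp5e), which is 8.64% beside 4.67% of all genes tested. Without overlap and higher were 3 members (Ndufv1, Sdha and Atp5a1), which is 3.70% beside 13.8% of all genes. Atp5a1, the alpha subunit that forms the catalytic head of ATP synthase with Atp5b, had 308, 361 and 351 RPKM in Con and 404, 407 and 373 in HFD (0.22, SE 0.08, adjusted p = 0.232). Leaving out the first Con liver gave a median of -0.18, leaving out the second gave -0.03 and called Sdha (0.38, adjusted p = 0.0310), leaving out the second HFD liver gave -0.15 and leaving out the third gave -0.05. With all library medians set equal the median was -0.15 and Ndufa3 passed (-0.39, adjusted p = 0.0484).

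The values in HFD against Con were ordered by the size of the subunit, as were those of AOS against Con, given further on. Classes by coding length, which were chosen after the values were seen, used the longest coding sequence in GENCODE M21 for the 79 tested members that have one. Of the 48 members under 500 nt of coding sequence, 43 had values below 0, with a median log2 fold change of -0.15. Of the 11 members of 1000 nt and more, 10 had values above 0, with a median of 0.18. The long members included the complex I genes Ndufs1, Ndufv1 and Ndufv3, Uqcrc2 of complex III, Sdha and Atp5a1. Ndufv3 (-0.29) was the exception among them. Ndufs1, the largest subunit of complex I with its iron-sulfur clusters, had 29.4, 41.2 and 35.2 RPKM in Con and 40.1, 43.7 and 44.6 in HFD (0.28, SE 0.11, adjusted p = 0.223).

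A like but smaller ordering was present over all genes. The 935 genes tested under 500 nt had a median of -0.08 and the 6898 of 1000 nt and more one of 0.07 in the same comparison. Spearman's rho between coding length and log2 fold change was 0.657 over the 79 members and 0.239 over the 10348 genes with a length; the genes share the same 6 livers, and RPKM itself is divided by length. A group of 16 members, made of the conserved core subunits of complex I, the redox subunits of complexes II and III and the head and central stalk of ATP synthase, had a median of 0.02 (9 of 16 above 0), and the remaining non-paralog subunits one of -0.11 (13 of 61 above 0). Among those 16, the 10 under 1000 nt had 3 values above 0 and the 6 longer ones had 6, while 4 of the 5 long members outside the group were above 0. The difference of the medians between long and short members was 0.32, and ran from 0.28 to 0.34 over 8 other settings: each liver left out in turn, the third Con liver left out with the third AOS liver, and equal library medians. RNA quality measures and read depth are not given in the sources used here, and their part in this ordering was not tested.

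**Figure D3:**
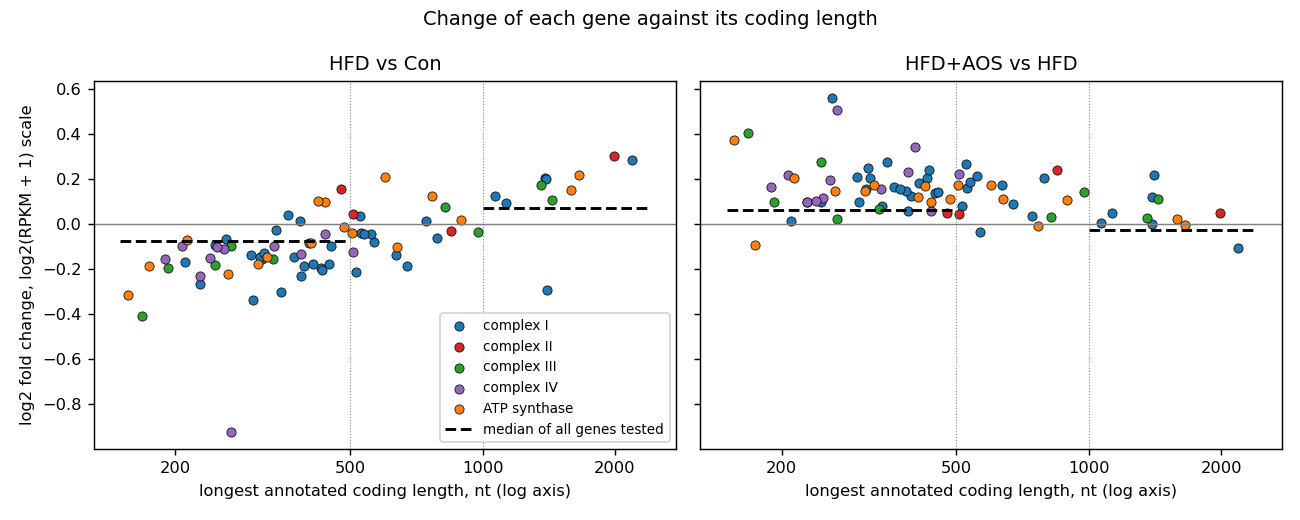
Log2 fold change of each member (log2(RPKM + 1) scale) against the longest annotated coding length (log axis), coloured by complex, for HFD vs Con (left) and HFD+AOS vs HFD (right), with dashed lines for the medians of all genes tested under 500 nt and of 1000 nt and more. At left, 43 of 48 short members lie below 0 and 10 of 11 long members above it, while at right 47 of 48 short members lie above 0.

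The next comparisons asked whether microbiota from AOS-dosed donors changed these genes on the high-fat diet. In A10-FMT against HFD livers no member passed the test by limma, where 6.60% of all genes did. At an unadjusted p under 0.05, 12 members were higher and none lower, 14.8% beside 24.5% of all genes. By direction, 1056 of all 10507 genes were higher and 1515 lower. The median log2 fold change of the members was 0.12, with 69 of 81 above 0, beside -0.03 for all genes tested, of which 43.2% were above 0. All 12 tested genes of complex IV (median 0.18) and all 9 of complex III (0.12) had values above 0, as had 34 of 39 in complex I (0.14) and 12 of 17 in ATP synthase (0.12), while complex II had 2 of 4 (0.02). Without overlap and higher in A10-FMT were 12 of 81 members (14.8%, beside 10.0% of all genes), and none was wholly lower (beside 13.4%).

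Sdhb, the iron-sulfur subunit of complex II, had the smallest p. Its level was 207, 199 and 168 RPKM in HFD and 238, 238 and 226 in A10-FMT. The groups did not overlap and the log2 fold change was 0.29 (SE 0.10, adjusted p = 0.0936). Its partner Sdha had 118, 129.5 and 136 RPKM in A10-FMT, which overlapped with HFD (log2 fold change -0.03, SE 0.08).

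Cox4i1, a regulatory subunit of complex IV, had 393, 436 and 367 RPKM in HFD and 513, 493 and 442 in A10-FMT (0.28, SE 0.10, adjusted p = 0.0960). Uqcrq, a small complex III subunit, had 148, 141 and 123.5 RPKM in HFD and 187, 181 and 152 in A10-FMT (0.33, SE 0.12, adjusted p = 0.103). Both were without overlap, and in both the third A10-FMT liver was the lowest of its group. That liver had the lowest mean of the members among the 3. Without it the median over the members was 0.18 and Uqcrq passed (0.42, adjusted p = 0.0418).

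With all library medians set equal, 6 members passed the test in A10-FMT against HFD (7.41%, beside 10.2% of all genes under that setting), all higher in A10-FMT: Uqcrq, Cox4i1 (0.31, adjusted p = 0.0203), Sdhb (0.33, adjusted p = 0.0302), Ndufs3 (0.28, adjusted p = 0.0229), Ndufs4 and Ndufs5. Ndufs3 is part of the ubiquinone-reducing arm of complex I, Ndufs4 an accessory subunit of its NADH-oxidising end, and Ndufs5 a small accessory subunit of its membrane arm. The median was 0.12 without the first and 0.10 without the second A10-FMT liver. These 2 livers had more Adipoq and Cfd than all others, and the part of those markers in the result was not tested.

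Atp5e, the epsilon subunit of the ATP synthase stalk, went the other way from most members. It had 179, 169 and 213 RPKM in A10-FMT and 199, 254 and 212 in HFD (-0.24, SE 0.12, adjusted p = 0.230), and the groups overlapped. Beside Con-FMT, with 246, 254 and 253 RPKM, all 3 A10-FMT livers were lower (-0.43, SE 0.12, adjusted p = 0.0878). Without the third A10-FMT liver that difference passed (-0.52, adjusted p = 0.0275).

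**Figure D4:**
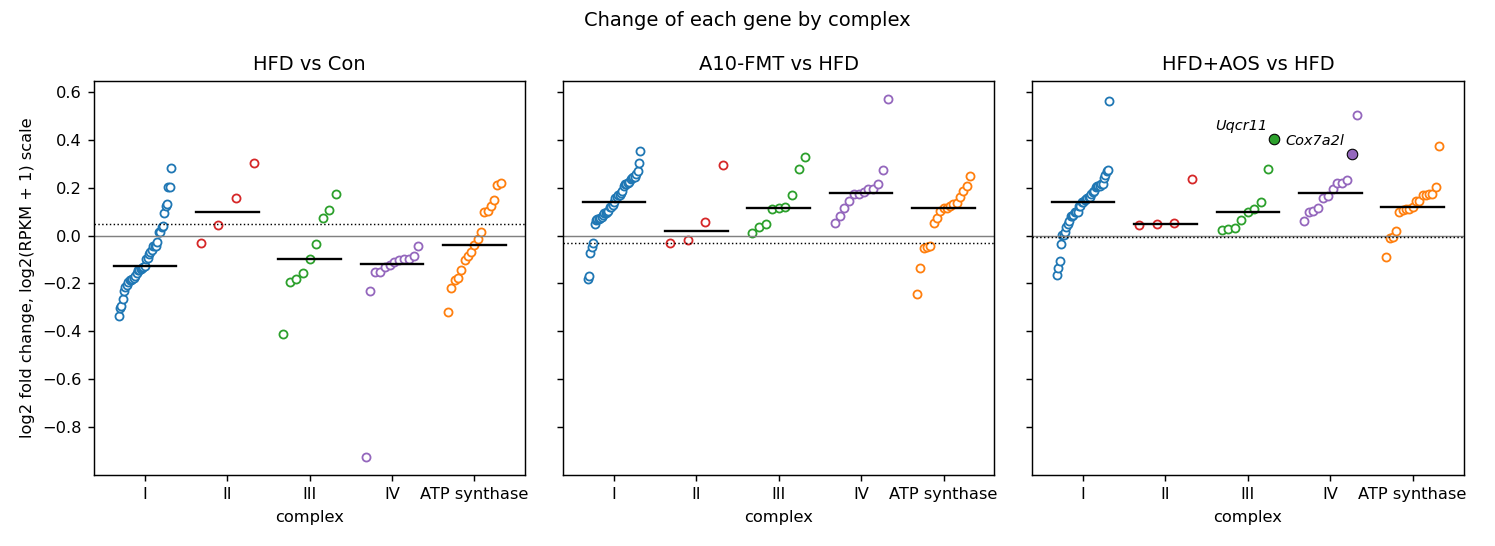
Log2 fold change (log2(RPKM + 1) scale) of each tested member in HFD vs Con, A10-FMT vs HFD and HFD+AOS vs HFD, by complex, with filled points for adjusted p under 0.05 by limma, bars for the median of a complex and a dotted line for the median of all genes tested. All 12 complex IV genes lie below 0 at left and above 0 in the other 2 panels, which share the HFD livers with the left one.

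In Con-FMT against HFD livers, which asked what the transplant itself did, no member passed the test by limma (0.00952% of all genes did). At an unadjusted p under 0.05, 1 was higher and 1 lower (2.47%, beside 6.63% of all genes, with 408 higher and 289 lower). The median of the members was 0.04, with 57 of 81 above 0, beside -0.0015 for all genes. That median was 0.0041 without the third HFD, 0.012 without the second Con-FMT, 0.025 without the first HFD and 0.08 without the second HFD liver. The smallest p was that of Cox7a2l, a factor that joins complexes III and IV into supercomplexes, with 51.7, 64.6 and 58.9 RPKM in Con-FMT and 51.8, 51.7 and 46.3 in HFD (0.22, SE 0.09, adjusted p = 0.727).

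A10-FMT was compared with Con-FMT, where both groups had a transplant and the donors differed in AOS. The donors' content was pooled by group, so the donors' AOS cannot be told apart from other differences between the pools. No member passed the test by limma, where 1.68% of all genes did. At an unadjusted p under 0.05, 4 members were higher and 2 lower (7.41%, beside 16.4% of all genes, with 599 higher and 1128 lower). The lower members were Atp5e and a paralog of Ndufb4 that has no annotated coding length, and reads of near-identical copies are uncertain. The median of the members was 0.10, with 66 of 81 above 0, beside -0.03 for all genes, of which 43.0% were above 0. It was 0.07 without the second and 0.16 without the third A10-FMT liver. Atp5e had the smallest p, as given above. Ndufs5 had the next smallest, with 119, 120.3 and 109 RPKM in A10-FMT and 100.4, 88.6 and 95.9 in Con-FMT (0.29, SE 0.09, adjusted p = 0.144), without overlap; it was named after its values were seen.

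HFD+AOS against HFD asked what AOS did on the high-fat diet, and here 2 of 81 members rose, Cox7a2l and Uqcr11, and none fell. That is a smaller share than the 8.75% of all genes that passed. At an unadjusted p under 0.05, 13 members were higher and none lower, 16.0% beside 26.2% of all genes. By direction, 1308 of all 10507 genes were higher and 1446 lower. The median of the members was 0.14, with 74 of 81 above 0, beside -0.0075 for all genes, of which 48.7% were above 0, and it was 0.09 without the third HFD+AOS liver. All tested genes of complexes II, III and IV had values above 0 (medians 0.05, 0.10 and 0.18), as had 35 of 39 in complex I (0.14) and 14 of 17 in ATP synthase (0.12).

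Cox7a2l (chr17:83501918-83517330 in GENCODE M21 on GRCm38, minus strand) had 51.8, 51.7 and 46.3 RPKM in HFD and 68.5, 58.9 and 63.4 in HFD+AOS. All 3 HFD+AOS livers were higher (log2 fold change 0.34, SE 0.09, adjusted p = 0.0346 by limma). The Con livers had 51.6, 52.0 and 55.2 RPKM, near the HFD level. Its promoter stretch shown above held none of the motifs.

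Uqcr11 (chr10:80402997-80406830, minus strand) had 278, 307 and 258 RPKM in HFD and 409, 347 and 361 in HFD+AOS. These groups did not overlap either (0.41, SE 0.12, adjusted p = 0.0429). The HFD+AOS mean, 372 ± 32.5 (SD, n = 3), was near that of Con, 375 ± 50.8. Its promoter stretch held the ETS core.

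Neither call was stable. With only the HFD and HFD+AOS livers fitted, adjusted p was 0.0964 for Cox7a2l and 0.0953 for Uqcr11, Uqcr11 did not pass without any 1 of the 6 livers (0.0526 to 0.167), and Cox7a2l did not pass without the second HFD, the third HFD, the first HFD+AOS or the third HFD+AOS liver (up to 0.142).

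Without overlap and higher in HFD+AOS were 21 of 81 members (25.9%, beside 13.2% of all genes), and none was wholly lower (beside 14.0%). They included the complex IV genes Cox4i1, Cox5b, Cox6b1, Cox7a2l and Cox8a, and in complex III the heme-bearing subunit Cyc1 with Uqcrq and Uqcr11. Cox4i1 had 460.2, 445 and 487 RPKM in HFD+AOS against 393, 436 and 367 in HFD (0.22, SE 0.10, adjusted p = 0.164). Sdhb had 225, 219 and 230.5 RPKM against 207, 199 and 168 (0.24, SE 0.10, adjusted p = 0.159).

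Atp5e had 316, 249.7 and 296 RPKM in HFD+AOS and 199, 254 and 212 in HFD (0.37, SE 0.12, adjusted p = 0.0646). The groups overlapped by 1 liver each. Ndufa4l2 had 1.84, 2.89 and 2.14 RPKM against 1.65, 1.44 and 0.67 (0.56, SE 0.21, adjusted p = 0.103), which did not overlap, at a level near the minimum tested. A10-FMT and HFD+AOS share the HFD livers as their control, so a low HFD liver moves both comparisons: without the third HFD liver the medians were 0.09 and 0.10.

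**Figure D5:**
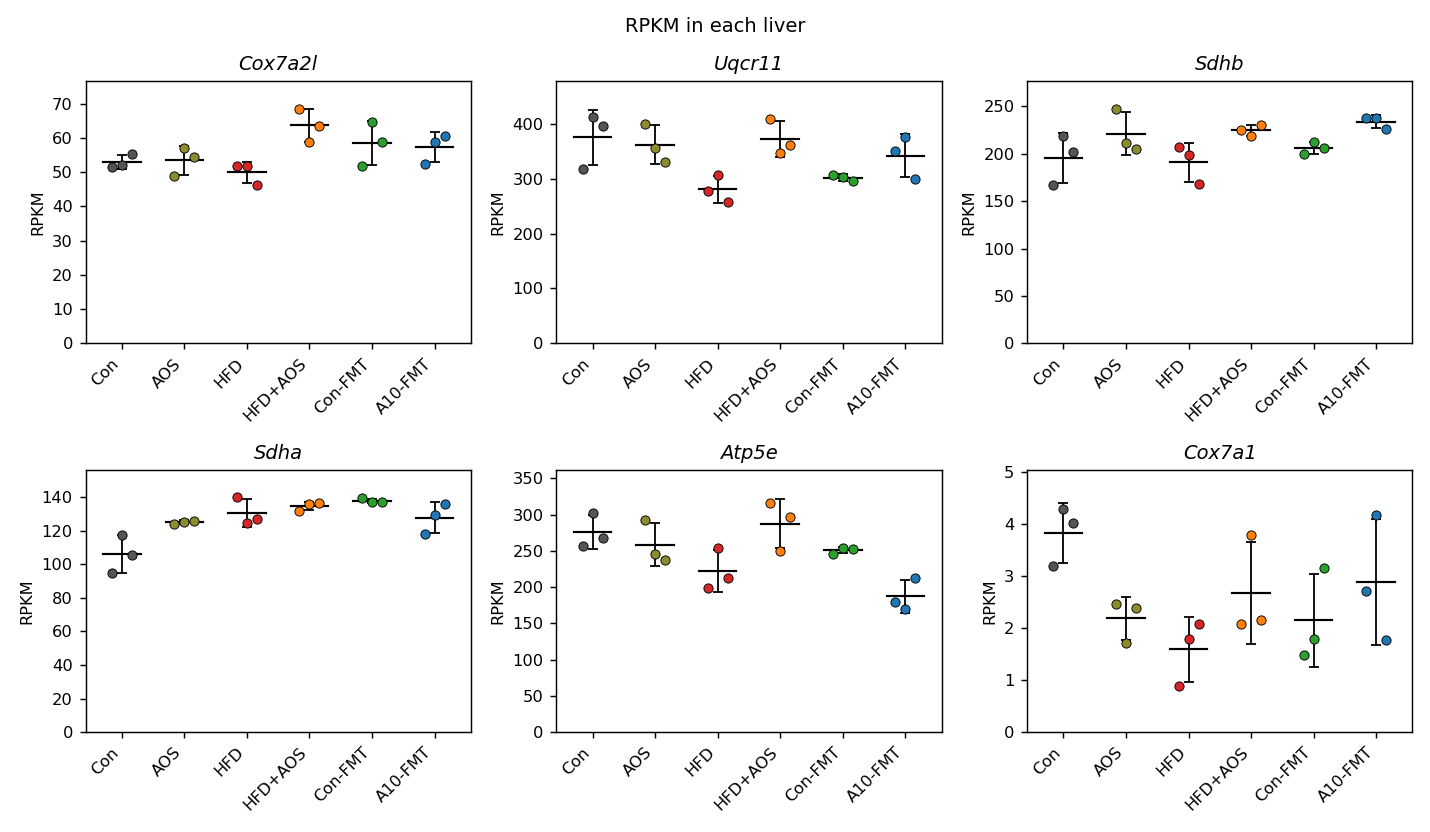
RPKM of 6 members in each of the 18 livers, 3 per group, with lines for group means and bars for SD. Cox7a2l and Uqcr11 are higher in the 3 HFD+AOS livers than in the 3 HFD livers, Sdha is higher in HFD than in Con, and the mean of Atp5e is lowest in A10-FMT.

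By coding length, 47 of 48 members under 500 nt had values above 0 in HFD+AOS against HFD (median 0.15), and 9 of the 11 of 1000 nt and more (median 0.03). In A10-FMT against HFD these were 45 of 48 (0.14) and 5 of 11 (-0.03). The same classes over all genes had medians of 0.06 and -0.03 in the former comparison and of 0.08 and -0.06 in the latter. Spearman's rho over the 79 members was -0.322 and -0.204, beside -0.173 and -0.228 over all genes. AOS against Con, which shares the Con livers with HFD against Con, had an ordering like that of the latter among the members: the short ones had a median of 0.02 and the long ones of 0.17, with a rho of 0.628 beside 0.048 over all genes.

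AOS livers, whose labels name no high-fat diet, were compared with Con. No member passed the test by limma, where 0.133% of all genes did. At an unadjusted p under 0.05, 5 members were higher and 1 lower (7.41%, beside 15.5% of all genes, with 1351 higher and 282 lower). The median of the members was 0.06, with 59 of 81 above 0, close to the 0.07 of all genes, of which 67.8% were above 0. The 4 complex II genes were all above 0, with a median of 0.21, and Sdha had the smallest p, with 124, 125 and 126 RPKM in AOS beside 94.7, 117 and 106 in Con (0.24, SE 0.08, adjusted p = 0.180). Cox7a1 had 2.46, 1.72 and 2.38 RPKM in AOS and 3.19, 4.30 and 4.02 in Con (-0.60, SE 0.25, adjusted p = 0.256). The median of the members turned to -0.03 without the first Con liver and to -0.01 with equal library medians. It was 0.13 without the second Con, 0.02 without the first AOS, 0.10 without the third AOS and 0.12 without both the third Con and the third AOS liver.

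The difference between the diets in the AOS effect was tested as an interaction, with the AOS livers taken as regular-diet livers. No member passed by limma, where 0.504% of all genes did. At an unadjusted p under 0.05, 5 members had a larger AOS effect on the high-fat diet, with none smaller (6.17%, beside 14.7% of all genes). For all genes, 385 were larger and 1156 smaller. The median of the members was 0.08 beside -0.08 for all genes, and it was 0.03 without the third Con and AOS livers. With 1 liver left out it ran from 0.0049 (without the second Con liver) to 0.16 (without the first), and it moved by over 1.5 times also without the third AOS, the first HFD, the second HFD, the third HFD or the third HFD+AOS liver (0.03 to 0.14). The smallest p was that of Cox7a1, with -0.60 in AOS against Con and a difference of 1.11 (SE 0.35, adjusted p = 0.162 by limma). Uqcr11 had a difference of 0.45 (SE 0.16, adjusted p = 0.225) and Cox7a2l one of 0.33 (SE 0.13, adjusted p = 0.265), so a different AOS effect between the diets was not shown for either.

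Other large complexes with many small subunits were set beside the members. In HFD against Con, the 88 cytosolic ribosomal protein genes tested had a median of -0.14, lower than the members' -0.10, the 78 mitochondrial ribosomal protein genes one of -0.03 and the 38 proteasome genes one of 0.04. In A10-FMT against HFD the medians were -0.02, 0.08 and -0.10, beside 0.12 for the members. In HFD+AOS against HFD they were -0.03, 0.05 and -0.09, beside 0.14 for the members. The members had the highest median of these 4 sets in both comparisons; no test of these differences was made, and both comparisons share the HFD livers.

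Among the genes that build and serve the chain, a few passed the test. Of 46 tested assembly factors, 1 rose and 1 fell in A10-FMT against HFD, 1 rose and 2 fell in HFD+AOS against HFD, and 1 fell in A10-FMT against Con-FMT. These are 4.35%, 6.52% and 2.17% of the list, beside the 6.60%, 8.75% and 1.68% of all genes. In HFD against Con none passed by limma, with 7 higher and 2 lower at an unadjusted p under 0.05 (19.6%, beside 15.4% of all genes). Ndufaf6, an assembly factor of complex I, had 4.79, 7.00 and 4.85 RPKM in HFD and 8.16, 11.7 and 10.5 in A10-FMT (0.77, SE 0.16, adjusted p = 0.0104). In HFD+AOS it had 7.85, 9.42 and 8.83 RPKM (0.58, SE 0.16, adjusted p = 0.0364). It was higher in all 3 livers of both groups than in any HFD liver.

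Sco2, a copper chaperone of complex IV, fell in both, with 117, 99.9 and 82.3 RPKM in HFD, 47.3, 42.1 and 65.8 in A10-FMT (-0.94, SE 0.16, adjusted p = 0.00292) and 66.4, 67.2 and 55.8 in HFD+AOS (-0.64, SE 0.16, adjusted p = 0.0259). It was also lower than in Con-FMT (-0.73, SE 0.16, adjusted p = 0.0342). Its exons share 68.3% of their bases with Tymp on the same strand and 66.2% with Ncaph2 on the other, so its reads are uncertain. Taco1, which activates the translation of a complex IV subunit of mitochondrial DNA, fell in HFD+AOS (-0.30, SE 0.09, adjusted p = 0.0477).

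Of 17 tested electron carriers and enzymes that feed ubiquinone, 1 fell in A10-FMT against HFD (5.88%, beside 6.60% of all genes). In A10-FMT against Con-FMT 2 fell (11.8%, beside 1.68% of all genes). Coq8a, needed for ubiquinone synthesis, had 159, 154 and 146 RPKM in HFD and 89.0, 72.7 and 112 in A10-FMT (-0.76, SE 0.16, adjusted p = 0.0106). Etfdh, which passes electrons from fatty acid oxidation to ubiquinone, had 71.0, 82.1 and 104 RPKM in A10-FMT and 117, 129 and 120.4 in Con-FMT (-0.52, SE 0.12, adjusted p = 0.0445). Both were without overlap between those groups, and Coq8a was also lower than in Con-FMT (-0.69, SE 0.16, adjusted p = 0.0416).

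None of 18 TCA cycle genes passed the test by limma in any of the 7 comparisons, where 0 to 6 of them had an unadjusted p under 0.05. In HFD against Con 15 of the 18 had values above 0 (83.3%, beside 62.5% of all genes), with a median of 0.12. At an unadjusted p under 0.05, 6 were higher (33.3%, beside 15.4% of all genes), and the smallest adjusted p was 0.0538. Of 15 tested regulators of mitochondrial biogenesis, 1 passed, in A10-FMT against HFD (6.67% of the list, beside 6.60% of all genes). Esrra, the estrogen-related receptor alpha that drives respiratory chain genes, had 9.72, 9.29 and 10.5 RPKM in HFD and 15.0, 15.9 and 12.1 in A10-FMT (0.49, SE 0.10, adjusted p = 0.00768). Of the 9 tested genes for ADP/ATP exchange, uncoupling and the ATP synthase inhibitor, none passed by limma in the 7 comparisons, where 0 to 2 had an unadjusted p under 0.05. Ppargc1a, the coactivator of mitochondrial biogenesis, was listed at 0.43 to 1.19 RPKM over all livers.

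The calls on these serving genes weakened when only the livers of the groups compared were fitted, with adjusted p of 0.0757 for Sco2 and Coq8a, 0.0951 for Ndufaf6 and 0.112 for Esrra in A10-FMT against HFD. In A10-FMT against Con-FMT, Sco2, Coq8a and Etfdh did not pass without the first or second Con-FMT liver or the first or second A10-FMT liver, Etfdh also not without the third Con-FMT liver, with adjusted p up to 0.220. In HFD+AOS against HFD, Taco1 passed in 1 of 11 other settings and not without any 1 of the 6 livers, Sco2 did not pass without the first HFD, the second HFD, the first HFD+AOS or the third HFD+AOS liver, and Ndufaf6 not without the first HFD, the third HFD or any HFD+AOS liver. In A10-FMT against HFD, Coq8a did not pass without the second A10-FMT liver (-0.61, adjusted p = 0.0636), nor did Ndufaf6 (0.66, adjusted p = 0.0610), which also did not pass without the third HFD liver (0.69, adjusted p = 0.0506).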

How the data were processed

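RNA-seq of 18 mouse livers (6 groups of 3) was used as deposited. The authors deposited RPKM values with 2 decimals for 19057 genes in a single table; the submitters' processing notes name Bowtie 0.12.2 and mm10, while the methods name SOAPaligner with all hits of a repeat read kept. Near-identical copies are therefore uncertain, as are overlapping genes, since strand is not given in the sources used here. The count test of the methods, DEGseq, was not run, because counts were not used here. Columns were matched to groups by sample titles.

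Values were taken as log2(RPKM + 1), and genes with at least 1 RPKM in at least 3 livers were kept (10507, of 17109 with any value). All 6 groups were fitted in 1 model with limma 3.58.1 (R 4.3.3, trend), p-values adjusted by Benjamini-Hochberg across the 10507 genes, and a threshold of 0.05; fold changes on this scale understate changes of low genes. The fit was tested on simulated data. Tables and plots were made with Python 3.11.15, numpy 2.4.6, pandas 2.3.3 and matplotlib 3.10.9. Depth is unknown, so no counting interval was given.

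The members, lists and tests were chosen with earlier results of these data known. Named were fixed core subunits and paralogs of each complex, the most abundant gene of each, up to 3 called members in each direction per comparison (with none, the smallest p), members of counts of 5 or fewer, and called genes of the pathway lists. Lists were described by counts and medians. Alternatives were equal library medians, a pseudocount of 0.1, no filter, only the groups compared, a replicate block and leaving out livers. The 13 listed genes of mitochondrial DNA were not analysed here. Values of 1 member by name are not reported here.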

Additional observations from a re-analysis of the deposited data

How the results depend on the processing

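The median of the members kept its direction in HFD against Con, A10-FMT against HFD, HFD+AOS against HFD and A10-FMT against Con-FMT under every alternative run, and turned only in AOS against Con as given above. Over the left-out livers, members called ran from 0 to 1 in A10-FMT against Con-FMT, A10-FMT against HFD and HFD against Con, and from 0 to 2 in HFD+AOS against HFD. With library medians set equal, 1, 6 and 4 members were called in HFD against Con, A10-FMT against HFD and HFD+AOS against HFD, beside 0.447%, 10.2% and 12.2% of all genes. In HFD+AOS against HFD, 1 was called with no filter on low values and 0 with only the groups compared. Of the results for named genes under the alternatives, 714 kept their direction and side of the threshold, 63 lost the call, 14 gained it and 0 reversed. The 714 include genes without a call in the main fit that stayed without one, and only called genes could lose a call. Among those, the call was kept in 1 of 11 alternatives (Taco1 in HFD+AOS against HFD) to 10 of 11 (Sco2 and Esrra in A10-FMT against HFD). For the called members it was 6 of 11 (Cox7a2l) and 3 of 11 (Uqcr11). The cause of these shifts was not tested.

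Same-numbered livers deviated together with r between -0.177 and 0.225, and in 0 comparisons was every r over 0.1, so the labels' numbers do not pair the livers. With the replicate block 2 members were called in HFD+AOS against HFD and 0 in the other comparisons, as without it, while Etfdh (adjusted p = 0.0530) and Coq8a (0.0654) in A10-FMT against Con-FMT and Taco1 (0.0643) in HFD+AOS against HFD did not pass. The differences between long and short members, added after seeing the data, kept their direction under every setting run. With 3 livers a group and unknown depth, small differences of single members cannot be resolved.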
